A study of Homo sapiens and Mus musculus with 19 samples.

Results

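MHC class I molecules were followed here through 7 human genes, the heavy chains HLA-B, HLA-C, HLA-E, HLA-F and HLA-G, the light chain B2M and the regulator NLRC5, and through mouse B2m, H2-D1 and H2-K1. They were taken as every probe set annotated to 1 of these symbols, which gave 21 of 54675 human probe sets and 18 of 45101 mouse probe sets. By gene, the human sets were 3 for HLA-B, 4 for HLA-C, 3 for HLA-E, 3 for HLA-F, 4 for HLA-G, 3 for B2M and 1 for NLRC5, and none of the 21 was annotated to a second gene. Of the 17 HLA sets, 15 carry the suffix _x_at, which marks sets with probes that also match other transcripts, so different HLA sets on an array are not independent readings. The exceptions were 200904_at for HLA-E and 221978_at for HLA-F. Of the 18 mouse sets 3 named several genes.

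The study asked what NF-kB activation and inhibition do to lung cancer cells, and measured RNA on 15 human and 4 mouse single-colour Affymetrix arrays. HCC827, H358, H23, PC9 and A549, the 5 human lung cancer lines, were each measured once with every one of 3 retroviral vectors. IKKb is the MiG retrovirus with an activated IKK beta whose activation-loop serines were changed to glutamate, IkB_SR is the same virus with an IkB alpha super-repressor whose phosphorylated serines were changed to alanine, and MiG is the virus without insert, which is the control. The mouse arrays hold LLC, a Lewis lung carcinoma line labelled LLC-kB OVA (a term the labels do not explain), with IKKb or MiG and 2 arrays of each. All cells in every group were transduced and then sorted on GFP, human lines grew in RPMI and LLC in DMEM, both with serum, and the labels do not say whether arrays of 1 vector came from separate cultures. The alleles of class I genes that these lines carry are not given in the labels.

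Class I molecules present peptides from inside the cell to CD8 T cells, and their heavy chain reaches the surface only with B2M and a loaded peptide. HLA-B and HLA-C are classical presenters, HLA-E is a ligand of the NKG2A receptor of natural killer cells, HLA-G is best known from the placenta, and HLA-F is held largely inside resting cells. Class I promoters carry an NF-kB site in a region called enhancer A, an interferon response element bound by factors such as IRF1, and a module bound by RFX5, CREB/ATF and NF-Y proteins on which NLRC5 acts as coactivator.

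These promoter elements are the reason for printing the windows of 180 bases before the start sites, which RefSeq entries of GRCh38.p14 gave for 5 of the 7 human genes. They lie at chr6:31357180-31357359 on the minus strand (HLA-B), chr6:31272093-31272272 on the minus strand (HLA-C), chr6:29723254-29723433 on the plus strand (HLA-F), chr6:29827645-29827824 on the plus strand (HLA-G, the last of 3 entries) and chr15:44711337-44711516 on the plus strand (B2M). Each is written 5′ to 3′ on the strand of its gene, with every match to a searched motif in capitals.
HLA-B: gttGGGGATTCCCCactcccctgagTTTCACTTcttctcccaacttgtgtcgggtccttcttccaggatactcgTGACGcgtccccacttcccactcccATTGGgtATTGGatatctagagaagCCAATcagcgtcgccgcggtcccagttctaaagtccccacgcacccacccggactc
HLA-C: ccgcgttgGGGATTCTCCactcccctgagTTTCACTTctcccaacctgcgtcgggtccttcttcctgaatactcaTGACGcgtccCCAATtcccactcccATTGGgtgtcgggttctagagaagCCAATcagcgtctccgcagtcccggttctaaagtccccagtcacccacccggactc
HLA-F: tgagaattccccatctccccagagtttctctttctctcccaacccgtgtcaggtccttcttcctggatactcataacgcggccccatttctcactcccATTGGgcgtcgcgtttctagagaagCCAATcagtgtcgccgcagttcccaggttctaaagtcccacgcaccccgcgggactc
HLA-G: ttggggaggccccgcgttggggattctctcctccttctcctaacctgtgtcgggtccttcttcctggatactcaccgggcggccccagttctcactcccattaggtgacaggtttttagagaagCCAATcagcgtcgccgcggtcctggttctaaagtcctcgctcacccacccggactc
B2M: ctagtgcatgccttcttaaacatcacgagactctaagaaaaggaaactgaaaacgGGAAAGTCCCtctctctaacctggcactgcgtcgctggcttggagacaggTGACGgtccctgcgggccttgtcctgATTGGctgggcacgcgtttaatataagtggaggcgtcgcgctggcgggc
The motifs, searched on both strands, were the NF-kB consensus, TTTCACTT of the interferon response element, TGACG bound by CREB/ATF and CCAAT bound by NF-Y. The NF-kB consensus was found in overlapping matches on both strands for HLA-B, at -177 to -167 from the start, for HLA-C at -172 to -163 and, on the other strand, for B2M at -125 to -116, against 3.82% of the 35116 promoter windows of this length. The HLA-B matches together cover GGGGATTCCCC, a run held by 0.0228% of those windows. The run was read from the HLA-B window, so its rarity is not a test. TTTCACTT was found for HLA-B and HLA-C (0.983% of windows), TGACG for HLA-B, HLA-C and B2M (17.3%), and CCAAT for all 5 (26.2%). Set against this HLA-B run, with positions counted from 1 at its 5′ end, the closest run differed by C9T in HLA-C, by G2A and G4A in HLA-F and by C9T and C11T in HLA-G. A match to these letters describes the window and does not show binding. A window without these exact letters may still hold another form of the element.

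Across the 15 human arrays the median signal was 51.3 to 76.5 on a scale where the authors set each array's trimmed mean to 500. How precisely a level is known depends here on how many arrays there are. The array of H358 with IKKb stood apart from the other 2 H358 arrays in the Dap spike-in control (2219, against 611 with IkB_SR and 628 with MiG) and in the ratio of 3′ to 5′ actin signal (1.74, against 1.38 with IkB_SR and 1.41 with MiG). The signal of NFKBIA, the gene of IkB alpha, was above MiG with IkB_SR in 4 lines (1.60 to 7.08 times), but 0.782 times MiG in H23. Calls among the class I sets and the gene lists are also given without these arrays. Of 6 epithelial markers 4 were above the 40th percentile of their array on all 15 arrays, of 6 fibroblast and endothelial markers 2 were (COL1A1 and PECAM1), and of 6 leukocyte markers none was. By array, CD2 was above it on 12, ITGAM on 11, CD14 on 10, CD3E on 7 and PTPRC and LYZ on 1 each. The summed leukocyte signal was 148 to 872 with IKKb, 144 to 467 with IkB_SR and 173 to 670 with MiG, and its part in the class I values was not tested. On the LLC arrays 2 of 6 markers of each kind were above the percentile throughout, namely Krt8 and Krt18, Cd14 and Cd68, and Col1a2 and Pdgfrb, and Cdh1 and Ptprc were below it throughout. In such bulk samples fewer cells with a transcript and less of it per cell cannot be told apart.

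All 21 class I sets lay above that percentile on enough arrays to be tested, and the lines differed in all of them by limma's moderated F test, as did 82.7% of the 36503 probe sets tested, so the count says nothing particular about class I. In cells with MiG, the HLA-B set 209140_x_at had signals of 22286 in HCC827, 11185 in H358, 6658 in H23, 3204 in PC9 and 1581 in A549. HCC827 and H358 were bright and A549 and PC9 dim with every vector. No array of a line and vector was repeated, so the SDs below include the effects of the vectors. Tests between lines likewise rest on how the lines' responses to the vectors spread, and not on repeat arrays. Over the 3 arrays of a line, log2 of the signal plus 16 averaged 14.11 ± 0.40 in HCC827, 13.69 ± 0.35 in H358, 12.67 ± 0.21 in H23, 11.58 ± 0.51 in PC9 and 10.76 ± 0.26 in A549 (SD, n = 3). Every neighbouring pair in that order passed limma's test, at adjusted p-values of 0.0411, 4.66e-05, 3.27e-05 and 0.000393. So did 46.6% of all probe sets between HCC827 and H358, 52.4% between H358 and H23, 48% between H23 and PC9 and 53.5% between PC9 and A549. The arrays of HCC827 and H358 overlapped, and so did those of PC9 and A549. HLA-C by 216526_x_at gave the same order, with neighbouring lines 1.46-fold, 2.11-fold, 2.02-fold and 1.63-fold apart and a highest adjusted p of 0.00100.

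The top and the bottom of this order were common over the 21 sets, while the full order of the 5 lines often differed. HCC827 was highest in 16 of 21, with H358 highest in the other 5 (3 HLA-F and 2 HLA-G sets), and HCC827 followed by H358 held for 76.2% of the class I sets and 3.89% of all probe sets. A549 and PC9 were the 2 lowest lines in 17. Without the H358 IKKb array HCC827 was highest in 19. The distance from the lowest to the highest line had a median of 2.70 on the log2 scale over the 21, against 1.34 over all probe sets tested. HLA-E by 200905_x_at was 2.0-fold higher in HCC827 than in H358 and 1.89-fold higher in H358 than in H23 (limma adjusted p = 0.00131 and 0.00201), while H23 against PC9 (0.49 ± 0.21 on the log2 scale, SE, adjusted p = 0.0705, arrays not overlapping) and PC9 against A549 did not pass. For HLA-F (221875_x_at) and HLA-G (211528_x_at) H358 and HCC827 were level, at differences of 0.02 and 0.03 on the log2 scale, with standard errors of 0.23 and 0.25.

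The bright B2M sets varied least between lines. With MiG, 201891_s_at had 32263 in HCC827, the brightest line, and 10598 in A549, the dimmest, and over the 3 vectors HCC827 stood above H358 by 0.72 ± 0.14 on the log2 scale (SE, limma adjusted p = 0.000719), while H358, PC9, H23 and A549 followed with no neighbouring pair past the test. Both bright sets read 22.3 to 72.6% of the highest signal of their array. Another B2M set, 232311_at, was dim (6.58 to 186.7) and above the 40th percentile on 8 of 15 arrays. NLRC5, read by 226474_at, was above the 40th percentile on 13 of 15 arrays, with MiG signals of 300.8 in HCC827, 198.1 in H358, 93.7 in A549, 80.4 in PC9 and 33.1 in H23. HCC827 against H358 did not pass (adjusted p = 0.823), and H358 was 2.65-fold above A549 (limma adjusted p = 0.0016), a pair of lines between which 54.7% of all probe sets passed.

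**Figure D1:**
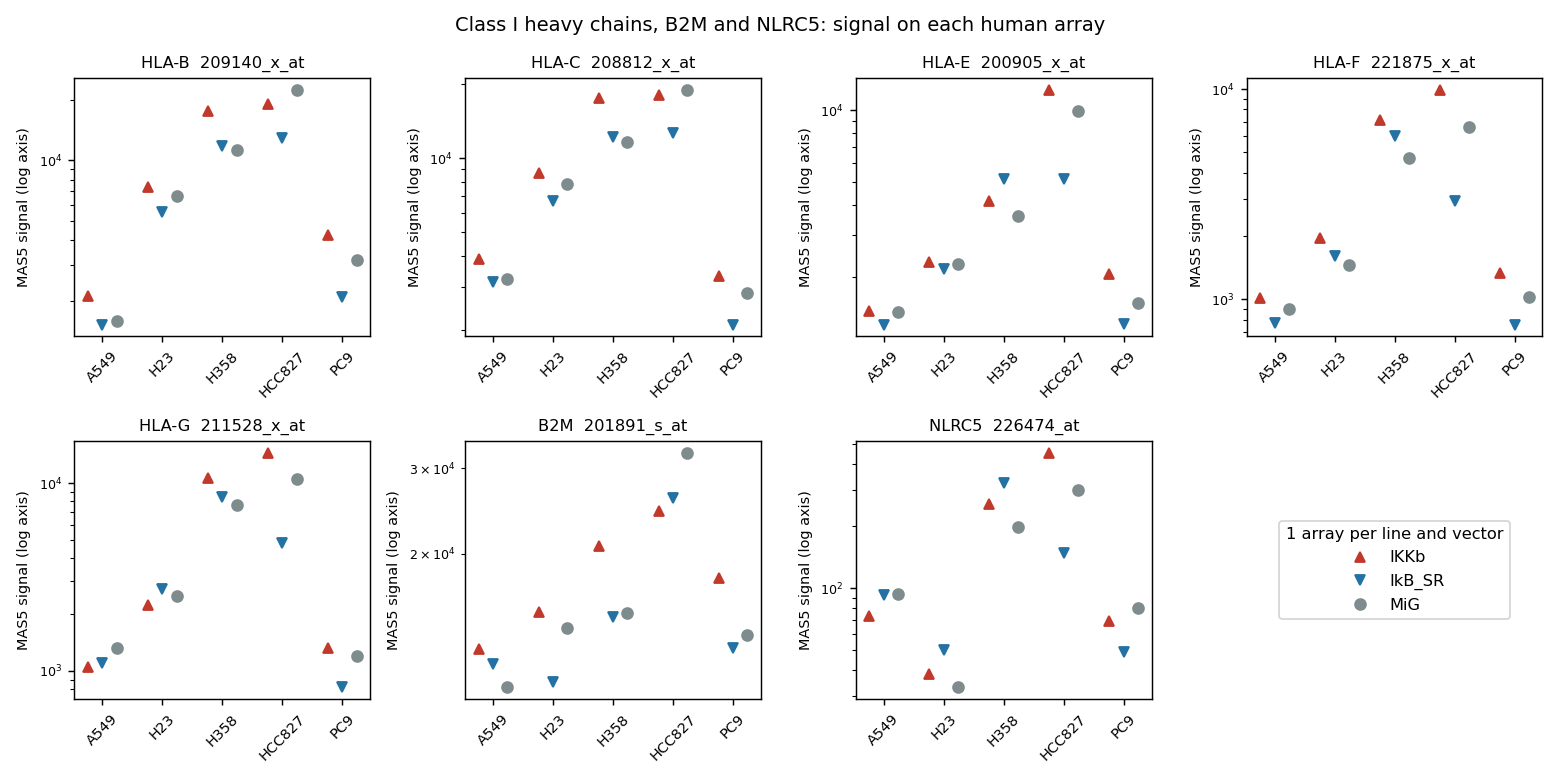
MAS5 signal on a log axis for the brightest probe set of each of the 7 human genes, with lines along the horizontal axis and 1 point per array for IKKb, IkB_SR and MiG. HCC827 and H358 lie above the other lines for HLA-B, HLA-C, HLA-E, HLA-F and HLA-G, and differences between lines exceed those between vectors.

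Activation was then set against inhibition, IKKb against IkB_SR, within the 5 lines. HLA-B and HLA-C rose, by 2 of 3 and 3 of 4 sets, 1.39-fold to 1.67-fold. The remaining heavy chains, B2M and NLRC5 did not pass the test, although every one of the 21 fitted differences was above 0. In all, 5 of 21 class I sets passed, all higher, where 0.422% of all probe sets passed in either direction and 0.282% were higher. The median difference over the 21 was 0.52 on the log2 scale (0.56 without either array that stood apart), against -0.02 over all probe sets, of which 45.5% were above 0.

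The brightest HLA-B set, 209140_x_at, had signals with IKKb of 18982 in HCC827, 17506 in H358, 7359 in H23, 4220 in PC9 and 2121 in A549. With IkB_SR they were 12906 in HCC827, 11818 in H358, 5551 in H23, 2094 in PC9 and 1521 in A549. With MiG they were 22286 in HCC827, 11185 in H358, 6658 in H23, 3204 in PC9 and 1581 in A549. IKKb was above IkB_SR in every line, while the vectors' ranges overlapped across lines, and in HCC827 the MiG array was the brightest. The difference from IkB_SR was 0.60 ± 0.12 on the log2 scale (SE, 1.52-fold, limma adjusted p = 0.0447), with ratios of 1.47 in HCC827, 1.48 in H358, 1.33 in H23, 2.02 in PC9 and 1.39 in A549.

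A second HLA-B set, 208729_x_at, had signals with IKKb of 13276 in HCC827, 8473 in H358, 2904 in H23, 1210 in PC9 and 1179 in A549. With IkB_SR it had 4925 in HCC827, 5462 in H358, 2483 in H23, 637.9 in PC9 and 820.1 in A549. With MiG it had 9895 in HCC827, 5757 in H358, 3080 in H23, 1147 in PC9 and 874 in A549. Again IKKb was above IkB_SR in all 5 lines, by 0.74 ± 0.14 (SE, 1.67-fold, limma adjusted p = 0.0412), with the smallest ratio in H23 (1.17) and the largest in HCC827 (2.70). The third HLA-B set, 211911_x_at, differed by 0.60 ± 0.15 and was higher in all 5 lines, with an adjusted p of 0.101.

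HLA-C gave the most even response over lines in 3 of its 4 sets. Its set 216526_x_at had signals with IKKb of 24010 in HCC827, 18870 in H358, 8203 in H23, 4198 in PC9 and 2514 in A549. IkB_SR cells gave 17188 in HCC827, 13454 in H358, 5989 in H23, 2705 in PC9 and 1871 in A549. MiG cells gave 23931 in HCC827, 12434 in H358, 6806 in H23, 3546 in PC9 and 1950 in A549. IKKb exceeded IkB_SR by 1.34 to 1.55 times in the 5 lines, for a difference of 0.50 ± 0.09 (SE, 1.41-fold, limma adjusted p = 0.0258). The sets 214459_x_at (0.52 ± 0.10, adjusted p = 0.0385) and 208812_x_at (0.48 ± 0.09, adjusted p = 0.0434) also rose. The dimmest HLA-C set, 211799_x_at, was level in H358 (1.0 times IkB_SR) and 3.41 times IkB_SR in HCC827, and did not pass (0.57 ± 0.19, adjusted p = 0.235).

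These calls lay close to the threshold. Without HCC827 or without PC9 none of the 21 sets passed, without A549 or H23 1 did, and without H358 3 did, while the HLA-B difference of 208729_x_at stayed between 0.57 and 0.87 and that of HLA-C 216526_x_at between 0.46 and 0.51. Without the H358 IKKb array alone, or without the H23 IkB_SR array alone, 1 set passed, and with a prior free of the intensity trend none did.

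HLA-E, the NKG2A ligand, split by line. By 200905_x_at its signals with IKKb were 12123 in HCC827, 4177 in H358, 2318 in H23, 2059 in PC9 and 1444 in A549. With IkB_SR they were 5168 in HCC827, 5141 in H358, 2165 in H23, 1271 in PC9 and 1265 in A549. With MiG they were 9950 in HCC827, 3606 in H358, 2278 in H23, 1554 in PC9 and 1430 in A549. IKKb was 2.35 times IkB_SR in HCC827 and 1.62 times in PC9, close to it in A549 and H23, and below it in H358 (0.812 times), where IkB_SR was the highest of the 3 vectors. The difference over lines was 0.38 ± 0.17 (SE) and did not pass (limma adjusted p = 0.391), nor did the other 2 sets. In 200904_at, the HLA-E set without the _x_at suffix, the H358 ratio was 0.588, the A549 ratio 1.71 and the HCC827 ratio 2.63. In 217456_x_at the ratio was 1.08 in H358, 0.935 in A549 and 2.49 in HCC827. The line in which IKKb was below IkB_SR thus differed between sets. The H358 ratios rest on the IKKb array that stood apart in its controls.

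HLA-F by 221875_x_at had signals with IKKb of 9884 in HCC827, 7111 in H358, 1969 in H23, 1337 in PC9 and 1018 in A549. Cells with IkB_SR had 2948 in HCC827, 5988 in H358, 1601 in H23, 759.3 in PC9 and 776.5 in A549. Cells with MiG had 6576 in HCC827, 4727 in H358, 1465 in H23, 1029 in PC9 and 896.3 in A549. It was the one set outside HLA-B and HLA-C that was higher with IKKb than with IkB_SR in all 5 lines, at 0.69 ± 0.18 (SE, limma adjusted p = 0.124), and its ratio in HCC827 was 3.35. The counterpart without the suffix, 221978_at, was dim, higher in HCC827 and PC9 only, and differed by 0.32 ± 0.25 (adjusted p = 0.667). In total 8 of 21 class I sets were higher in all 5 lines, against 3.97% of all probe sets.

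HLA-G by 211528_x_at had signals with IKKb of 14476 in HCC827, 10608 in H358, 2232 in H23, 1329 in PC9 and 1046 in A549. With IkB_SR they were 4811 in HCC827, 8439 in H358, 2736 in H23, 818.6 in PC9 and 1108 in A549. With MiG they were 10489 in HCC827, 7665 in H358, 2496 in H23, 1197 in PC9 and 1321 in A549. IKKb was above IkB_SR in H358, HCC827 and PC9 and below it in A549 and H23, with HCC827 again the widest (3.01 times). The 4 HLA-G sets differed by 0.45 to 0.67 on the log2 scale with adjusted p-values of 0.157 to 0.398, and their HCC827 ratios were 2.73 to 5.02.

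The bright B2M sets were not higher with IKKb in HCC827. The set 201891_s_at had signals with IKKb of 24523 in HCC827, 20729 in H358, 15146 in H23, 17839 in PC9 and 12706 in A549. With IkB_SR this set read 25977 in HCC827, 14771 in H358, 10884 in H23, 12773 in PC9 and 11852 in A549. With MiG this set read 32263 in HCC827, 15062 in H358, 14076 in H23, 13605 in PC9 and 10598 in A549. IKKb was above IkB_SR in 4 lines (1.07 to 1.4 times) and 0.944 times in HCC827, the line where B2M was brightest and where MiG was above both other vectors. The differences of the 2 bright sets, 0.29 ± 0.11 and 0.32 ± 0.12 (SE), did not pass (limma adjusted p = 0.312 and 0.298), nor did the dim set 232311_at (0.70 ± 0.29, adjusted p = 0.362). That set was higher with IKKb in HCC827, at 186.7 with IKKb, 54.6 with IkB_SR and 159.1 with MiG.

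NLRC5, the coactivator, had signals with IKKb of 452.8 in HCC827, 256.6 in H358, 38.4 in H23, 69.7 in PC9 and 73.3 in A549. IkB_SR arrays read 147.6 in HCC827, 321.8 in H358, 50.2 in H23, 49.4 in PC9 and 92.7 in A549. MiG arrays read 300.8 in HCC827, 198.1 in H358, 33.1 in H23, 80.4 in PC9 and 93.7 in A549. IKKb was below IkB_SR in A549, H23 and H358 (0.765 to 0.797 times) and above it in PC9 (1.41 times) and HCC827 (3.07 times). The fitted difference was 0.21 ± 0.25 (SE, limma adjusted p = 0.812), and it was -0.12 without HCC827.

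**Figure D2:**
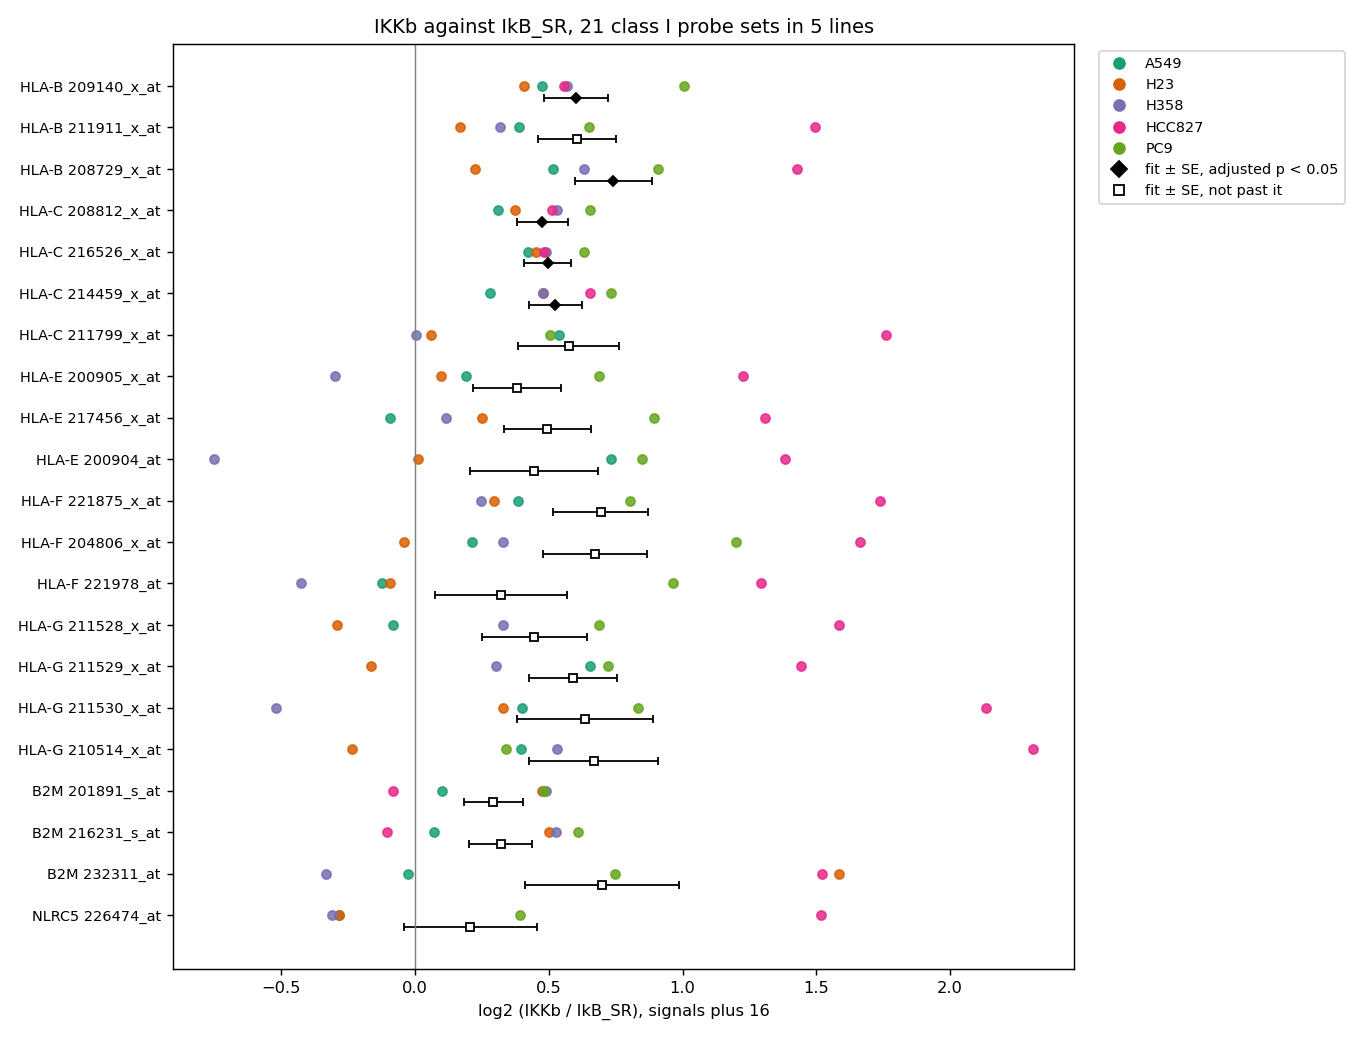
Difference between IKKb and IkB_SR on the log2 scale (signals plus 16) for the 21 human class I probe sets, with 1 coloured point per line and the fit with its standard error below them. The 5 filled diamonds, 2 HLA-B and 3 HLA-C sets, passed an adjusted p of 0.05, and HCC827 lies far to the right for most HLA sets but left of 0 for both bright B2M sets.

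By line, the number of class I sets higher with IKKb than with IkB_SR was 19 in HCC827, 15 in H358, 15 in H23, 21 in PC9 and 16 in A549. The median difference was 1.43 in HCC827, 0.32 in H358, 0.22 in H23, 0.72 in PC9 and 0.31 in A549, so the difference was widest in HCC827 and PC9. Over all probe sets the medians of the lines lay between -0.05 and 0.00. Without HCC827 the class I median of the fit was 0.38, with 20 of 21 above 0.

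Each vector was also set against MiG. These comparisons share the MiG arrays with each other, and each shares its own arrays with the comparison above, so their values are given side by side only. No class I set passed between IKKb and MiG, where 0.00548% of all probe sets passed (2 sets, both lower) and 2036 had an unadjusted p below 0.05, 6 of them class I sets, all higher. All 21 fitted differences were above 0, with a median of 0.24 against -0.03 over all probe sets. The largest were those of HLA-F, 0.44 ± 0.19 for 204806_x_at and 0.43 ± 0.18 for 221875_x_at (SE, limma adjusted p = 0.874 for both), and 5 sets were higher in all 5 lines, against 2.65% of all probe sets. HLA-C by 216526_x_at differed by 0.30 ± 0.09 and HLA-B by 209140_x_at by 0.27 ± 0.12. HLA-G was at 0.10 to 0.18 and NLRC5 at 0.12. B2M by 201891_s_at was lower with IKKb in HCC827 and higher in the other 4 lines (0.16 ± 0.11). HLA-B by 209140_x_at had the same pattern, at -0.23 in HCC827.

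Between IkB_SR and MiG no class I set passed either, nor did any probe set of the table (0% of 36503), where 1532 had an unadjusted p below 0.05, 8 of them class I sets, all lower. The fit was below 0 for 20 of 21, with a median of -0.26 against -0.01 over all probe sets, and -0.36 without the H23 IkB_SR array. The lowest fits were those of the HLA-G sets 210514_x_at (-0.54 ± 0.24) and 211530_x_at (-0.53 ± 0.25) and of HLA-B 208729_x_at (-0.46 ± 0.14, SE, limma adjusted p = 0.997 for all 3). All 21 sets were lower than MiG in HCC827 (median -0.95) and in PC9 (median -0.51), 18 were lower in A549 (median -0.09), 14 in H23 (median -0.07) and 6 in H358 (median 0.08). Only 3 were lower in all 5 lines, against 3.76% of all probe sets. The exception to the direction, HLA-F 221978_at, was at 0.07 ± 0.25, and at -0.026 without the H23 IkB_SR array. B2M was at -0.13 ± 0.11 and -0.10 ± 0.12 by its bright sets, and NLRC5 at -0.09 ± 0.25.

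**Figure D3:**
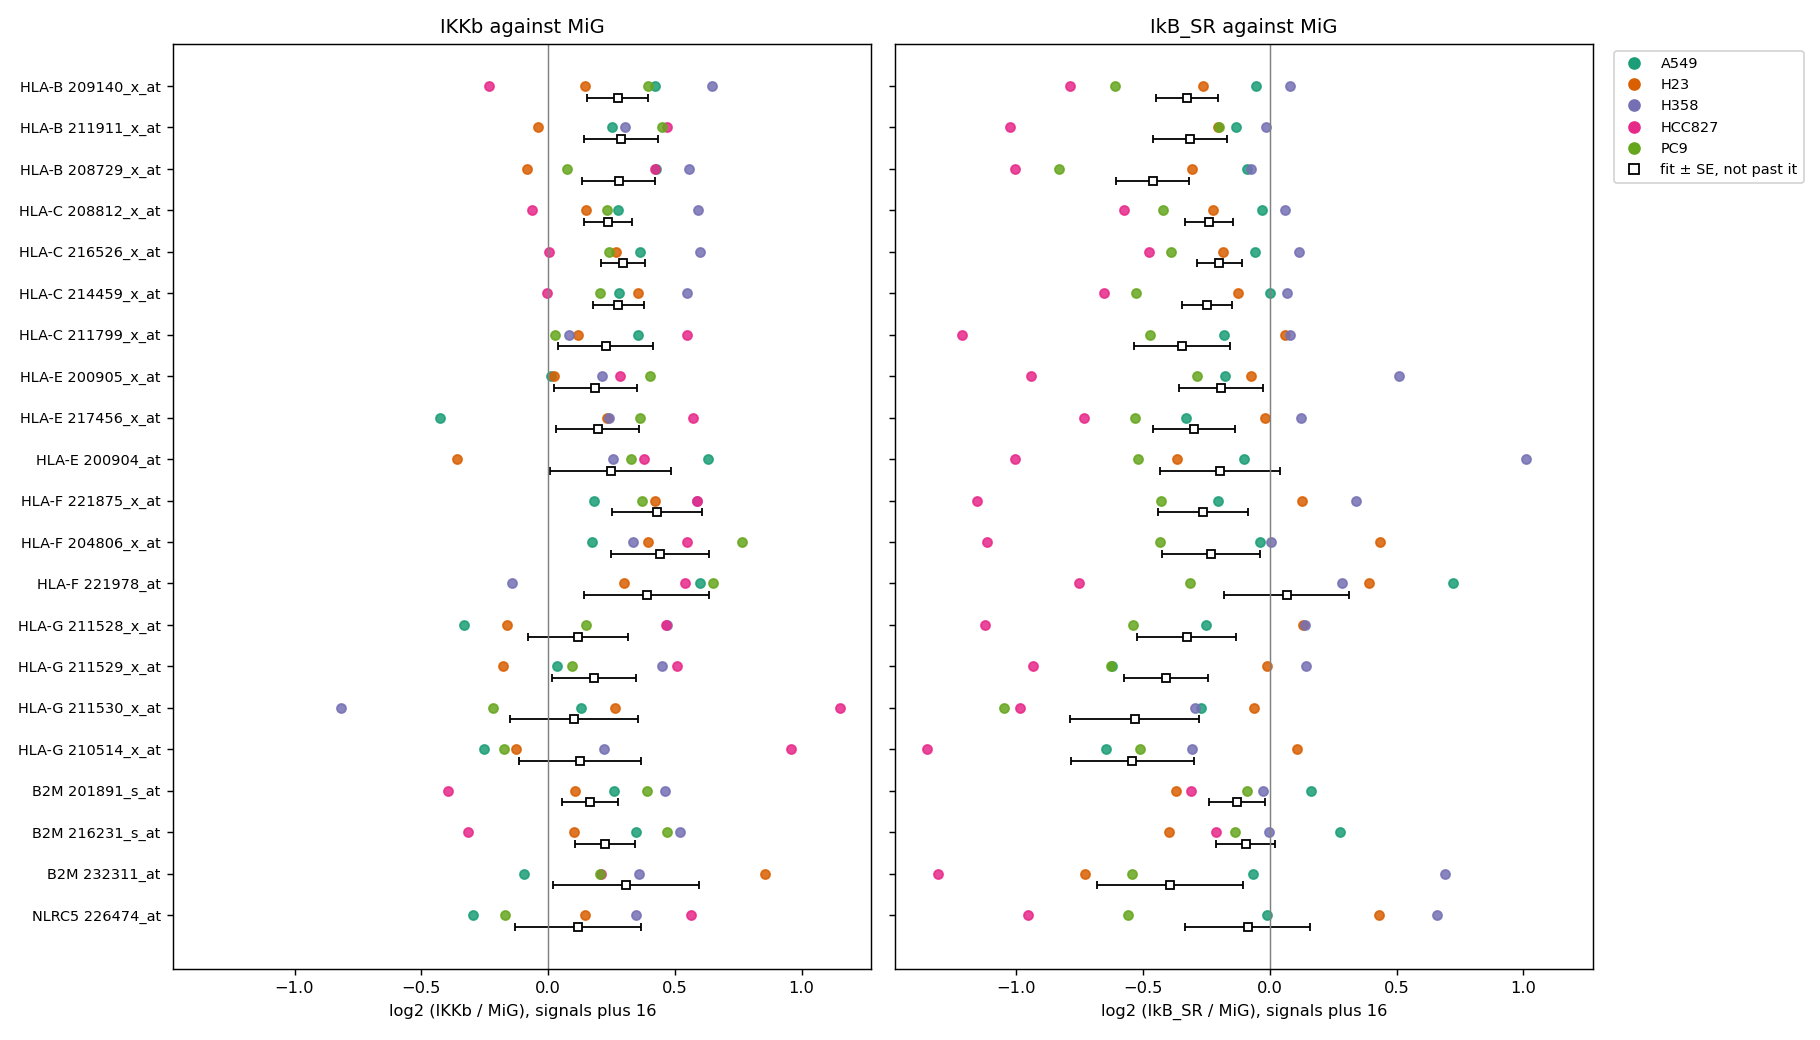
Differences on the log2 scale (signals plus 16) of IKKb from MiG (left) and of IkB_SR from MiG (right) for the 21 human class I probe sets, with 1 coloured point per line and the fit with its standard error below them. No set passed the test, HCC827 and PC9 lie left of 0 for every set in the right panel, and H358 lies right of 0 for 15 of 21.

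The order IKKb above MiG above IkB_SR within a line held for 16 of the 21 sets in HCC827, 5 in H358, 10 in H23, 18 in PC9 and 13 in A549. How often all probe sets took this order was not counted, so these counts are a description only. H358 was the line where IkB_SR was most often above MiG.

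The heavy chains moved together across vectors. After each line's mean was removed, different sets of the same gene had a median correlation of 0.85 over the 15 arrays (24 pairs, 0.42 to 0.99) and sets of different HLA genes 0.77 (115 pairs, 0.43 to 0.98). Between an HLA set and a bright B2M set it was 0.25 (34 pairs, -0.07 to 0.81), and 0.31 without the H358 IKKb array. This median covers unlike pairs. B2M 201891_s_at correlated at 0.81 with HLA-B 209140_x_at and 0.78 with HLA-C 216526_x_at. Its correlation was 0.16 with HLA-C 211799_x_at, 0.25 with HLA-E 200905_x_at and 0.17 with HLA-G 211528_x_at. These arrays share their scaling, and the _x_at sets share matching transcripts, so the values are descriptions. Among 15205 other genes, the 3 closest to HLA-B (209140_x_at) by this correlation were MYH15 (0.94), LINC01138 (0.92) and STAT3 (0.91). For HLA-E (200905_x_at) they were SLC28A3 (0.96), RIPK2 (0.94) and BTN3A3 (0.94), and for HLA-F (221875_x_at) IL6 (0.92), GATA6 (0.91) and DGAT2 (0.91). For B2M (201891_s_at) they were PTTG1IP (0.94), NFE2L2 (0.89) and PPP1R3E (0.88). Among genes of the pathway, TAPBP (0.88), RELB (0.85) and PSMB9 (0.81) stood nearest to HLA-B, with NLRC5 at 0.39. Nearest to HLA-F were IRF1 (0.89), NLRC5 (0.82), TAP1 (0.81) and RFX5 (0.80). NLRC5 also stood near HLA-E (0.85) but not near B2M (-0.10).

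The machinery that makes and loads class I peptides rose with IKKb relative to IkB_SR in 6 of 13 genes measured, none fell, and the list's median was 0.67 against -0.01 over 15212 genes, of which 68 rose. Those that rose were PSMB9, a subunit of the immunoproteasome (1.74 ± 0.28), TAP1, a subunit of the peptide transporter in the endoplasmic reticulum (1.5 ± 0.28), TAPBP, the tapasin that bridges transporter and heavy chain (0.94 ± 0.12), the trimming peptidases ERAP2 (0.93 ± 0.19) and ERAP1 (0.67 ± 0.13), and TAP2 (0.92 ± 0.11). PSMB8, another immunoproteasome subunit, was at 1.04 ± 0.23 (SE, limma adjusted p = 0.0663). The general chaperones of the list did not pass, with CALR at 0.23, CANX at 0.05 and PDIA3 at 0.01. Each gene stands by its brightest probe set. Without the H358 IKKb array 5 passed, with PSMB8 in and TAP1 and ERAP1 out, and without the H23 IkB_SR array 3 did, PSMB9, TAP2 and TAPBP.

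Of 16 regulators that act on class I promoters 4 rose and none fell (median 0.14). They were the NF-kB subunits RELB (2.16 ± 0.22), NFKB2 (1.70 ± 0.20) and NFKB1 (0.85 ± 0.10), which are also known NF-kB targets, and the interferon-induced factor IRF1 (0.70 ± 0.13, SE, limma adjusted p = 0.0332). Without the H23 IkB_SR array IRF1 no longer passed. RFX5, which binds the class I promoter module, was at 0.44 ± 0.16 (adjusted p = 0.288), and the class II coactivator CIITA at 0.15 ± 0.23 (adjusted p = 0.863).

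Class I-like molecules, among them MICA and MICB, gave 0 of 7 past the test and a median of 0.00. At an unadjusted p below 0.05 by limma 1 was higher and 2 were lower, where 11.7% of all probe sets were below it. Among 8 interferons, receptors and their kinases 1 rose, IFNGR1, a chain of the interferon gamma receptor (0.62 ± 0.12, adjusted p = 0.0381). Of 19 interferon-stimulated genes 1 rose, the guanylate-binding protein GBP1 (1.38 ± 0.26, adjusted p = 0.0381), with a list median of 0.81. Without the H23 IkB_SR array neither IFNGR1 nor GBP1 passed. The median of the interferon-stimulated list was 3.12 in HCC827, against -0.42 in H358, 0.25 in H23, 0.27 in PC9 and 0.21 in A549. HCC827 also had the widest class I median. Of the class I sets that passed, HLA-B 208729_x_at differed most in HCC827. HLA-B 209140_x_at and HLA-C 208812_x_at, 214459_x_at and 216526_x_at differed most in PC9. The part of the interferon-stimulated list in the class I difference was not tested. The peptide loading list was at 0.88 in HCC827, 0.27 in H358, 1.09 in H23, 0.82 in PC9 and 0.32 in A549, and the 15 NF-kB targets at 2.54 in HCC827, 2.05 in H358, 1.18 in H23, 1.29 in PC9 and 0.71 in A549. Of those NF-kB targets 11 rose, by the most IL32, a cytokine that was below the 40th percentile on every IkB_SR array (4.52 ± 0.47), the chemokine CCL2 (3.45 ± 0.70), the NF-kB inhibitor TNFAIP3 (3.39 ± 0.40) and the adhesion molecule ICAM1 (2.26 ± 0.28). Without the H358 IKKb array 8 rose and without the H23 IkB_SR array 10 did, CCL2 in neither case. No gene of any of these lists passed between IKKb and MiG or between IkB_SR and MiG, by limma. At an unadjusted p below 0.05 the loading list held 4 genes in the first, all higher (median 0.31), and 8 in the second, all lower (median -0.41).

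**Figure D4:**
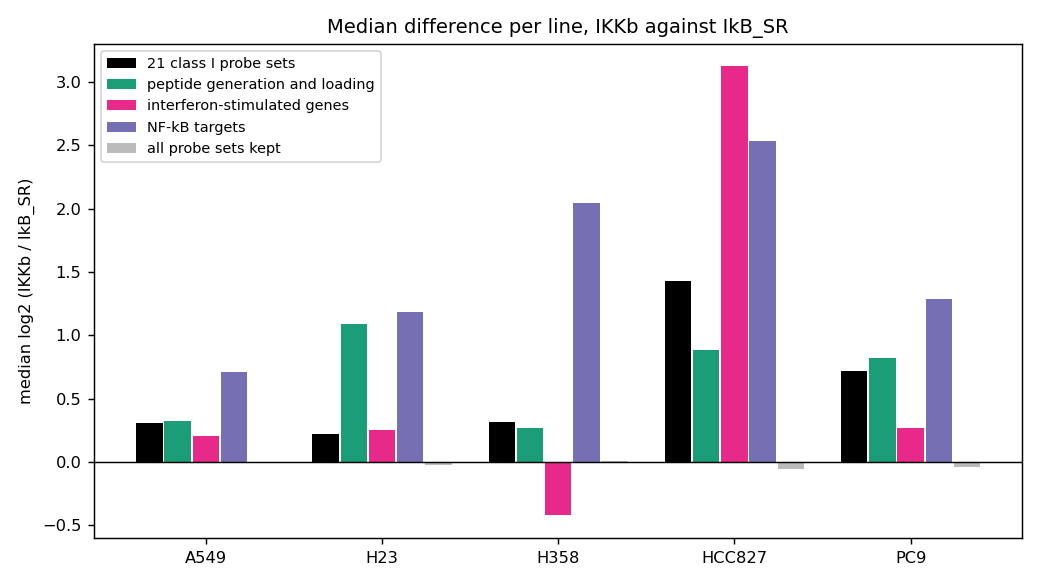
Median difference between IKKb and IkB_SR on the log2 scale in each human line, as bars from 0, for the 21 class I probe sets, 3 gene lists and all probe sets tested. The class I bar is tallest in HCC827 (1.43), where the interferon-stimulated list is also highest (3.12), and the NF-kB bar is above 0 in all 5 lines.

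In mouse LLC cells IKKb was set against MiG with 2 arrays each. Of the 18 mouse sets 14 were bright enough to be tested, and 4 H2-D1 sets, 1 of them also naming Gm38417 and H2-Q2, were not. In this model, without array number, none of the 14 passed. Neither did any of the 28080 probe sets tested (0%), of which 409 had an unadjusted p below 0.05, 2 of them class I sets. With array number as a block 5 of the 14 passed, as did 570 of all 28080 probe sets, but what equal numbers share is not stated. The labels do not say whether the arrays of a vector came from separate cultures, so p-values measure only the spread between these arrays, which may be technical.

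H2-K1, a classical heavy chain, showed the widest gap. Its set 1425336_x_at had signals of 2336 and 1311 on the IKKb arrays, against 891 and 624 on the MiG arrays. Both IKKb arrays were above both MiG arrays, and the difference was 1.21 ± 0.33 on the log2 scale (SE, 2.32-fold, limma adjusted p = 1.0). The set 1424948_x_at, annotated to both H2-K1 and H2-D1, had 231 and 120 on the IKKb arrays, against 82.9 and 27.8 on the MiG arrays (1.48 ± 0.51, adjusted p = 1.0). These were the 2 sets with an unadjusted p below 0.05, at 0.0103 and 0.0273 by limma. The brightest H2-K1 set, 1451931_x_at, overlapped between the vectors, with 5969 and 4398 on the IKKb arrays, against 5566 and 3150 on the MiG arrays (0.29 ± 0.32). The dim H2-K1 sets 1427746_x_at (1.76 ± 0.79) and 1450534_x_at (0.77 ± 0.42) were also higher with IKKb, the second lying above the 40th percentile on the IKKb arrays only. All tested sets naming H2-K1 alone, and most of those naming H2-D1 alone, carry the suffix _x_at and may also read other transcripts.

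H2-D1, the other classical heavy chain, was close between the vectors in its bright sets. By 1425545_x_at it had 8688 and 5286 on the IKKb arrays, against 8714 and 4283 on the MiG arrays (0.15 ± 0.40). By 1451784_x_at it had 7732 and 4789 on the IKKb arrays, against 7318 and 3603 on the MiG arrays (0.24 ± 0.40). In both, array 1 of either vector was above array 2 of either vector. The set 1426324_at had 746 and 489 on the IKKb arrays, against 460 and 359 on the MiG arrays (0.55 ± 0.29), and 1451683_x_at had 1881 and 1773, against 1448 and 1132 (0.51 ± 0.21). Neither overlapped, and neither passed without array number in the model. Lower with IKKb were 1427651_x_at (-0.28 ± 0.46) and 1452544_x_at (-0.06 ± 0.28), and so was 1451593_at, annotated to H2-Q5 and H2-K1 (-0.27 ± 0.45).

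B2m had 9410 and 10095 on the IKKb arrays, against 9081 and 7521 on the MiG arrays, by 1449289_a_at (0.24 ± 0.22), and 10893 and 7927, against 10010 and 5771, by 1452428_a_at (0.29 ± 0.33). The vectors did not overlap in the first set and did in the second. Over the 14 sets tested 11 fits were above 0, with a median of 0.29 against 0.01 over all probe sets, and 7 had both IKKb arrays above both MiG arrays, against 10.7% of all probe sets. The filter kept some dim sets through the IKKb arrays, so these counts are a description. The Dap spike-in control was 1195 and 18.0 on the IKKb arrays, against 1273 and 19.0 on the MiG arrays, and thus split the arrays by number. Its part in the spread between arrays 1 and 2 was not tested.

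**Figure D5:**
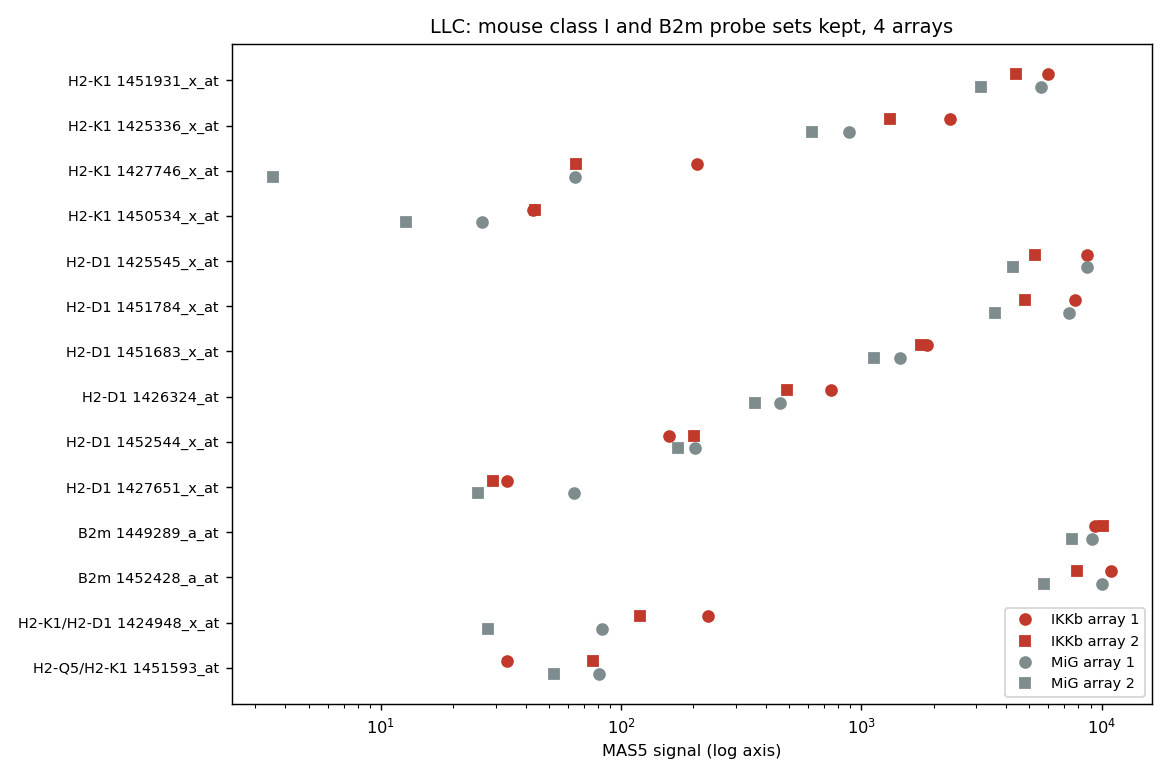
MAS5 signal on a log axis for the 14 mouse H2-K1, H2-D1 and B2m probe sets tested, with IKKb arrays in red above MiG arrays in grey and symbols for array number. The H2-K1 set 1425336_x_at separates the vectors (2336 and 1311, against 891 and 624), while the bright H2-D1 sets separate array 1 from array 2.

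No gene of the mouse versions of the lists passed by limma. The peptide loading list had a median of -0.05 over 12 genes, of which 2 were at an unadjusted p below 0.05, with Tapbp at 1.04 ± 0.39 and Tap1 at -0.31, and 12 NF-kB targets a median of 1.32, with 8 at an unadjusted p below 0.05. Relb, among the promoter regulators, was at 1.85 ± 0.37 (SE, limma adjusted p = 1.0), and the 7 interferon-stimulated genes measured had a median of -0.01.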

How the data were processed

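RNA of transduced lung cancer cells was measured on single-colour Affymetrix arrays, 15 human and 4 mouse. The deposited values are linear intensities, 1 per probe set, computed by the authors with GCOS 1.4 and MAS5, per the submitters' processing notes, and the trimmed mean of each array was checked to be 500. That scaling removes differences in total RNA, and dim MAS5 signals are noisy. Gene names came from the platform annotation.

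Tests used log2 of the signal plus 16 and every probe set above the 40th percentile of its array on at least 5 human or 2 mouse arrays. limma 3.58.1 in R 4.3.3 (lmFit, eBayes with an intensity trend, two-sided, Benjamini-Hochberg over all probe sets, threshold 0.05) took the cell line as a block in human arrays and no block in mouse. The labels give the line of each human array, which is the pairing: after vector means were removed, arrays of a line correlated at 0.762 to 0.886 and arrays of different lines at -0.396 to 0.012. The test was tried on simulated data. Figures used matplotlib 3.10.9 in Python 3.11.15.

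All probe sets of the members are accounted for. From each gene list up to 4 genes past the threshold with the largest difference were named, and TAP1, TAPBP, PSMB9, PSMB8, IRF1, RFX5, RELB and CIITA in any case; 1 more gene of that rule is not reported here. TAP2, ERAP1, MICA, MICB, CALR, CANX and PDIA3 were added after their values were seen. The members and lists were chosen with earlier results of these data known.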

Additional observations from a re-analysis of the deposited data

Results flagged for a closer look

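Among 126 sets of 5 values (levels per vector and differences per line of the 21 human class I sets), 3 held a line that stood far from the other 4 by Dixon's criterion, which chance gives in about 5% of such sets. HLA-E by 200904_at with IKKb in HCC827 read 11.53 on the log2 scale, while the remaining lines read 8.59 to 9.35. For HLA-B by 209140_x_at the difference of IKKb from IkB_SR was 1.01 in PC9, against 0.41 to 0.57 in the others. For HLA-B by 211911_x_at the difference of IkB_SR from MiG was -1.03 in HCC827, against -0.21 to -0.02 in the others.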

How the results depend on the processing

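Class I sets passing between IKKb and IkB_SR numbered 5 of 21 as reported, with 154 of all probe sets. The number was again 5 with a pseudocount of 64, quantile normalisation, median centring, a filter at the 60th percentile and a robust prior. It was 2 with a pseudocount of 1, 1 without a filter (more probe sets tested), 0 without the intensity trend, 0 with just the 2 vectors compared in the model (fewer arrays), 1 without the H358 IKKb array, 1 without the H23 IkB_SR array, and 0 to 3 with 1 line left out. By gene it was 2 of 7 with the brightest probe set and 0 of 7 with the mean of probe sets. Other causes were not tested. All probe sets passing were 107 with a pseudocount of 1, 73 without a filter, 44 genes with the mean of probe sets, 15 without the trend, 94 without the H23 IkB_SR array, 17 on the compared vectors only, and 27 to 185 with 1 line left out. With no replicate block, that is with cell line left out of the model, 0 class I sets passed and 229 of all probe sets had an unadjusted p below 0.05. No class I set passed between either vector and MiG under any of these settings, and every class I set tested passed between lines under each setting run there (20 with the filter at the 60th percentile, 7 genes in the settings by gene, 21 in the others).

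Signs turned for a minority of the human sets and for a larger part of the LLC sets. Without MiG array 2, 7 of 14 LLC fits were above 0 (median -0.0026), and without MiG array 1, 13 were (median 0.69). With all arrays 11 were (median 0.29). HLA-F 221978_at between IkB_SR and MiG was -0.026 without the H23 IkB_SR array and -0.10 to 0.27 with 1 line left out, being -0.014 without H23. With 1 line left out, NLRC5 was at -0.12 to 0.34 between IKKb and IkB_SR and at -0.27 to 0.13 between IkB_SR and MiG (0.030 without PC9), HLA-E 200904_at at -0.50 to 0.0050 between IkB_SR and MiG, and HLA-G 210514_x_at at -0.082 to 0.22 and 211530_x_at at -0.16 to 0.33 between IKKb and MiG. In LLC with 1 array left out, H2-D1 was at -0.36 to 0.66 (1425545_x_at), -0.27 to 0.75 (1451784_x_at), -0.22 to 0.091 (1452544_x_at) and -0.75 to 0.19 (1427651_x_at), H2-K1 1451931_x_at at -0.12 to 0.70, the H2-Q5 and H2-K1 set 1451593_at at -0.72 to 0.17 and B2m 1452428_a_at at -0.11 to 0.69.

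In LLC the replicate block gave 5 of 14 class I sets and 570 of all probe sets, against 0 and 0 without it. The 5 were H2-K1 1425336_x_at and 1427746_x_at, H2-D1 1426324_at and 1451683_x_at, and the shared set 1424948_x_at. Deviations of same-numbered arrays correlated at 0.61, but the meaning of those numbers is not stated. With 2 arrays per vector in LLC, differences with a standard error of 0.21 to 0.79 rest on few readings. Added after the data were seen, the gene lists without the H358 IKKb array gave 2 interferon-stimulated genes that rose, against 1 with it. Without the H23 IkB_SR array 3 loading genes rose, against 6, and 0 interferon receptors and 0 interferon-stimulated genes, against 1 of each.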
